A study of Drosophila melanogaster with 12 samples.

Results

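PSC and PH binding sites in control S2 cells were compared from 3 peak lists, taken from 3 of the 12 samples of the series: PSC ChIP-SEQ in control cells, with replicates 1 and 2, and PH ChIP-SEQ in control cells, with 1 sample. S2 is a Drosophila cell line of embryonic origin. Control cells were asynchronous and untreated, and had been collected by FACS with an antibody to histone H3, so all 3 lists come from sorted cells. In the paper's own qPCR, tested PSC sites outside PREs were detected in sorted cells only. By its account, another study had found some of them in unsorted S2 cells. The paper proposes that the sorting procedure and its antibodies contribute to the detection of PSC at these sites. How far the sites shared here depend on sorting was not tested. PSC was the endogenous protein in S2 cells, precipitated with a biotinylated rabbit antibody. PH was a biotin-tagged protein in a stable S2 line that also carried the BirA ligase, with both transgenes under the metallothionein promoter, and was pulled down with streptavidin and no antibody. The protein, the cell line and the way of pulldown therefore differ together and cannot be told apart. Lists from mitotic cells and the input samples were not used here.

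PSC (Posterior sex combs) and PH (Polyhomeotic) are core subunits of Polycomb repressive complex 1, PRC1, together with Polycomb and dRING. PRC1 keeps developmental genes, among them the Hox genes, repressed, and in Drosophila it is found at Polycomb response elements (PREs), the DNA elements that recruit it. PSC compacts chromatin and inhibits nucleosome remodelling, and PH carries a SAM domain that can polymerise. PSC is also a subunit of dRAF, a complex that lacks PH.

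The list of PSC replicate 1 held 4830 peaks, that of PSC replicate 2 held 3276 and that of PH held 4629. The peaks covered 10.6 Mb in PSC replicate 1, 4.71 Mb in PSC replicate 2 and 10.4 Mb in PH. Each peak had a score, the authors' value from the peak caller MACS. It was taken to be −10·log10(p), since scores in PSC replicate 2 went down to 50, the value that a cutoff of 1e-05 gives. The lowest scores of the other lists were 160.75 in PSC replicate 1 and 165.56 in PH. Median scores were 663 and 105 in PSC replicates 1 and 2, against 754 in PH. Exactly 3100 recurred at 156 peaks of PSC replicate 1, at none of PSC replicate 2 and at 207 of PH, and may stand for p-values too small to be written. Scores above it, up to 3233.06 in PSC replicate 1 and 3215.21 in PH, occurred at 28 and 24 peaks. Ranks followed the scores as deposited, which put these peaks above those at 3100, but the order among the highest peaks is uncertain. Scores were compared between lists by rank, as percentiles within each list, where 100 marks the highest score.

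PSC replicate 2 thus stood apart from the other PSC list and from the PH list in length, scores and covered bases. Peak numbers show how many peaks were removed after calling: 1358 of 6188 numbers were missing in PSC replicate 1, 7 of 3283 in PSC replicate 2 and 1206 of 5835 in PH. Read numbers are not part of the lists. The paper gives a range of mapped reads over its samples and no value for each, so the depth of each list is unknown. Absence of a site from a list means that it did not pass that list's threshold, not that it was unbound. With 2 PSC lists and 1 PH list the smallest p an exact permutation over samples can give is 0.333, and no test between PSC and PH was run. Each result is given for both PSC replicates, and the difference between the PSC replicates serves as the measure of spread between libraries. Intervals are exact 95% binomial intervals (Clopper-Pearson) over the peaks of a list. They cover counting error only, not the variation between cultures.

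PSC and PH were found at largely the same places. Of the 4830 peaks of PSC replicate 1, 4403 overlapped a PH peak by at least 1 bp (91.2%, interval 90.3 to 91.9). Of the 3276 peaks of PSC replicate 2, 3128 overlapped a PH peak (95.5%, interval 94.7 to 96.2). In the other direction, 4357 of 4629 PH peaks had a partner in PSC replicate 1 (94.1%, interval 93.4 to 94.8), and 2985 overlapped one of PSC replicate 2 (64.5%, interval 63.1 to 65.9). A peak of either PSC replicate lay at 4394 PH peaks (94.9%), and peaks of both at 2948 (63.7%). Between the PSC replicates, 3038 peaks of replicate 1 had a partner in replicate 2 (62.9%, interval 61.5 to 64.3), and 3168 peaks of replicate 2 had one in replicate 1 (96.7%, interval 96.0 to 97.3). The list of PSC replicate 1 thus shared more of its peaks with PH than with the other replicate of PSC.

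In covered bases, PSC replicate 1 and PH had 9.29 Mb in common, which was 79.4% of the bases covered by either. PSC replicate 2 and PH had 4.49 Mb in common (42.2% of either), and PSC replicates 1 and 2 had 4.54 Mb (42.4% of either). Most pairs were simple: 4196 peaks of PSC replicate 1 and PH were matched one to one. A peak of PSC replicate 1 spanned 2 or more PH peaks in 44 cases, and a PH peak spanned 2 or more peaks of PSC replicate 1 in 88 cases. The overlaps were deep, with the median overlap reaching 100% of the shorter peak, and 2 of the 4448 overlaps between PSC replicate 1 and PH were under 100 bp.

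These shares moved with the lengths of the lists. When each list was held to its 3000 highest scoring peaks, 90.3% of the PSC replicate 1 peaks and 79.7% of the PSC replicate 2 peaks had a PH partner, and 75.4% of the PSC replicate 1 peaks had a partner in PSC replicate 2. With 1000 peaks in each list these shares were 83.2%, 58.4% and 58.0%. In the other direction, 79.2% of the 3000 and 59.2% of the 1000 highest peaks of PSC replicate 2 had a partner in PSC replicate 1, so at equal list length PSC replicate 2 had about as many partners in PH as in the other PSC list. These equal lengths for all 3 pairs were chosen after the data had been seen.

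The sites of the 3 lists merged into 5078 places on the genome. All 3 lists held 2928 of them (57.7%). A further 1381 (27.2%) were held by PSC replicate 1 and PH and missed by PSC replicate 2. Peaks of both PSC replicates without PH lay at 74 places, and of PSC replicate 2 with PH alone at 37. PSC replicate 1 alone held 352 places, PSC replicate 2 alone 71, and PH alone 235. A PSC peak seen in both replicates was found with PH more often than one seen once: 2963 of the 3038 peaks of PSC replicate 1 that recurred in replicate 2 overlapped PH (97.5%), against 1440 of the 1792 that did not recur (80.4%). The peaks that did not recur ranked low, with a median percentile of 26.6.

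Sharing followed the score. In each of the 4 highest score deciles of PSC replicate 1, 99.8% or 100% of peaks overlapped a PH peak. The share was 88.6% in the third decile from the bottom, 74.4% in the second and 56.6% in the lowest. In PSC replicate 2 the share was 100% in the 2 highest deciles and 87.2% in the lowest. The 427 peaks of PSC replicate 1 without a PH peak had a median percentile of 10.4, and the 148 of PSC replicate 2 one of 17.3. The 272 PH peaks without a peak of PSC replicate 1 had a median percentile of 7.63. Peaks without a partner in the list they were compared with were thus mostly among the weakest of their own list. They were also shorter: unshared peaks of PSC replicate 1 had a median length of 1467 bp against 1735 bp for shared ones, and unshared PH peaks 1395.5 bp against 1821 bp. Few were near misses, as 23 of the 427 lay within 500 bp of a PH peak and the median distance to the nearest one was 4835 bp.

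**Figure D1:**
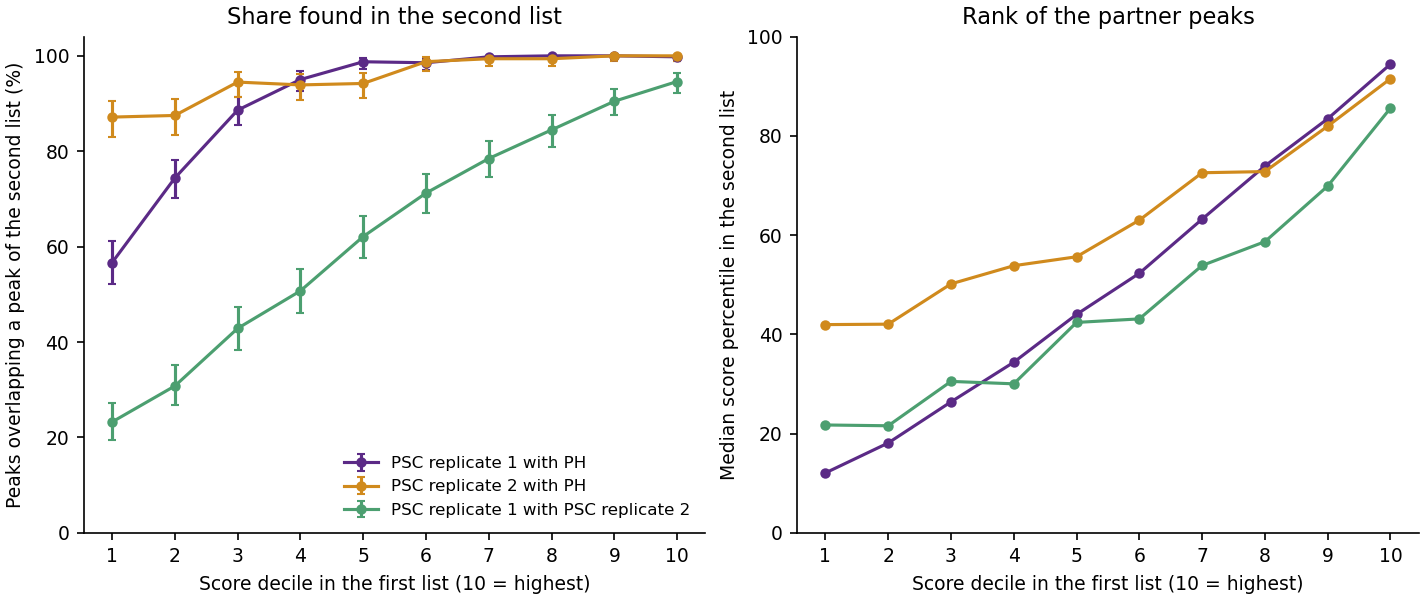
Left, the share of peaks of the list named first that overlap a peak of the list named second (vertical axis, %), by score decile in the first list (horizontal axis, 10 is the highest); bars are exact 95% binomial intervals. Right, the median percentile of the partner peaks. For PSC replicate 1 with PH the share is 56.6% in the lowest decile and 99.8% in the highest, while for PSC replicate 1 with PSC replicate 2 it is 23.2% and 94.6%.

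Score ranks at shared peaks were closer between PSC replicate 1 and PH than between the PSC replicates. The paper compared reads within called peaks, an unlike measure, by Pearson's correlation. On that measure it reports good agreement between the PSC control replicates and nearly identical PSC and PH profiles. Its correlation between the PSC control replicates was no lower than that between PSC and PH in control cells. The order of the score ranks given here is thus not seen on the paper's measure. Spearman's rank correlation of the scores was 0.87 over 4403 pairs of PSC replicate 1 and PH, 0.51 over 3128 pairs of PSC replicate 2 and PH, and 0.55 over 3038 pairs of PSC replicates 1 and 2. The points of each correlation are peaks of 2 libraries, which are not independent samples, and scores also followed peak length within each list (rank correlation 0.65 and 0.49 in PSC replicates 1 and 2, and 0.64 in PH). The percentiles of PSC replicate 1 and PH differed by less than 10 points at 64.9% of pairs, against 31.4% for PSC replicate 2 and PH and 34.2% for both PSC replicates. They lay more than 50 points apart at 41 pairs of PSC replicate 1 and PH, at 315 of PSC replicate 2 and PH and at 263 of the PSC replicates.

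The strongest peaks of PSC replicate 1 were largely the strongest of PH. Of the 483 peaks in the highest 10% of PSC replicate 1, 374 had a PH partner in the highest 10% of PH (77.4%, interval 73.4 to 81.1). Of the 328 in the highest 10% of PSC replicate 2, 178 had one (54.3%, interval 48.7 to 59.8). Of the 483 strongest peaks of PSC replicate 1, 172 had a partner among the strongest of replicate 2 (35.6%, interval 31.3 to 40.1). Since the lists differ in length, the highest 10% is a different number of peaks in each, and the shares in the other direction were added after the data had been seen. Of the 328 strongest peaks of PSC replicate 2, 177 had a partner among the strongest of replicate 1 (54.0%), about the share they had with PH. Of the 463 strongest PH peaks, 369 had a partner among the strongest of PSC replicate 1 (79.7%) and 170 among those of PSC replicate 2 (36.7%).

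**Figure D2:**
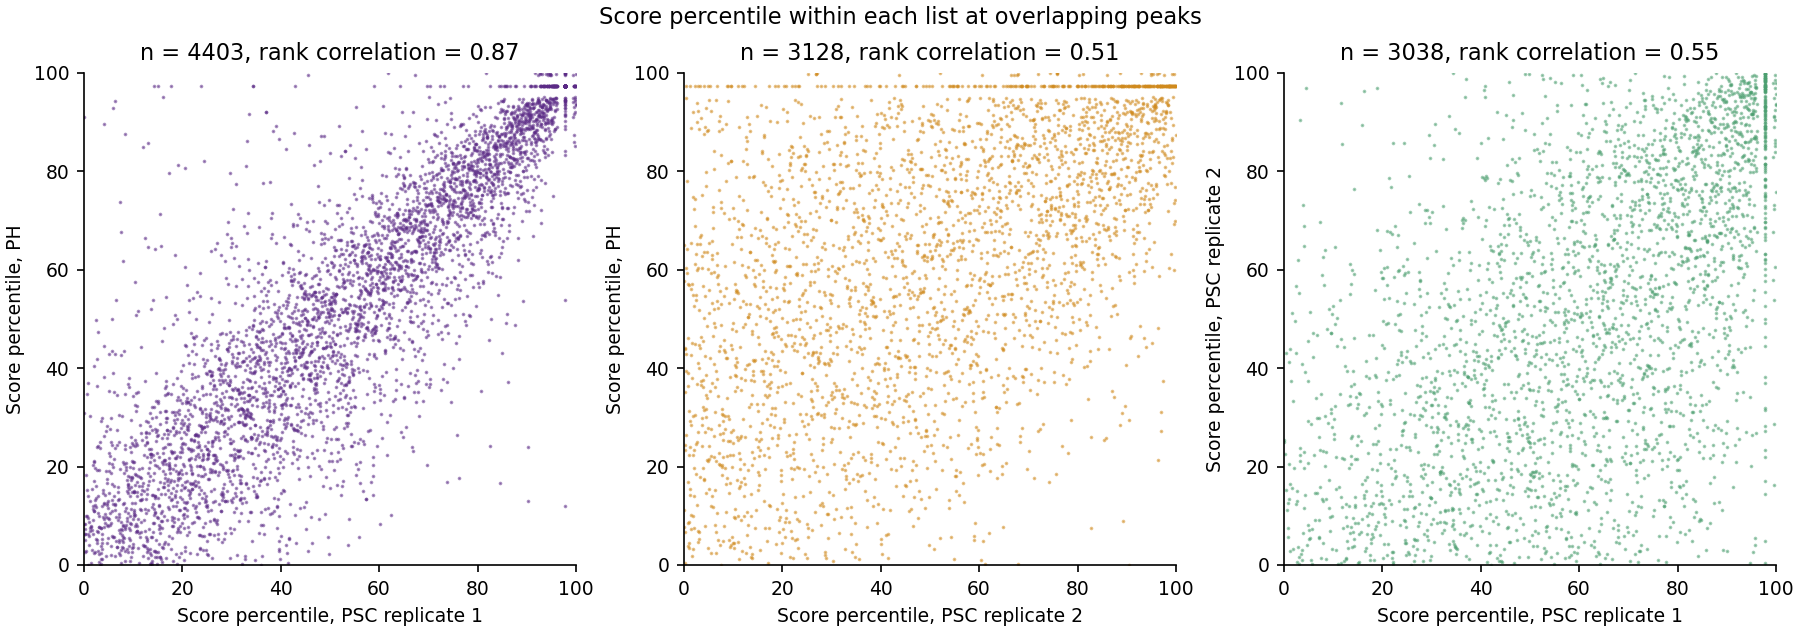
Score percentile within each list at overlapping peaks, with 1 point per peak of the list on the horizontal axis. The points of PSC replicate 1 and PH lie along the diagonal (rank correlation 0.87), and those of PSC replicate 2 with PH (rank correlation 0.51) and of both PSC replicates (rank correlation 0.55) scatter over most of the plane; the lines of points near 97 or 98 are the peaks with a score of exactly 3100.

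To compare the lists over one set of places, ranks were taken anew over the 2722 sites with exactly 1 peak in each list. Spearman's rank correlation was 0.90 for PSC replicate 1 and PH, 0.56 for PSC replicate 2 and PH and 0.55 for the PSC replicates. The SD of the rank difference was 13.0 percentile points for PSC replicate 1 and PH, against 27.2 points for PSC replicate 2 and PH and 27.5 points for the PSC replicates. The list that lay farthest from the median of the 3 ranks was PSC replicate 2 at 1681 sites (61.8%), PSC replicate 1 at 516 (19.0%) and PH at 525 (19.3%). PH was therefore not the list that stood apart.

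By these ranks, PH lay between the PSC replicates at 1156 of the 2722 sites, below both at 808 and above both at 758. By percentiles within the whole lists, both PSC replicates ranked the site higher than PH at 696 and lower at 841, so the balance of direction turned with the set of peaks that was ranked. By the ranks over the 2722 sites, counts at a distance of more than 20 points beyond both other lists were 78 sites for PH below both PSC replicates and 46 for PH above both. The same distance was exceeded by PSC replicate 2 at 445 sites above and 453 below both other lists, and by PSC replicate 1 at 62 above and 74 below. PH was thus an outlying list about as rarely as PSC replicate 1.

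PSC peaks of replicate 1 and PH peaks were nearly the same length. At shared pairs the median log2 ratio of PSC replicate 1 over PH was −0.055 (quartiles −0.14 and 0.031), and the PSC peak was longer at 1465 pairs and the PH peak at 2933 of 4403. Median lengths at these pairs were 1735 bp for PSC replicate 1 and 1831 bp for PH. PSC replicate 2 had shorter peaks, with a median log2 ratio of −0.57 over PH and a longer PH peak at 3061 of 3128 pairs. The log2 ratio of PSC replicate 1 over PSC replicate 2 was 0.48. The PH peak was therefore longer than the PSC peak in both replicates, and the gap in length between PSC replicate 1 and PH was small beside that between the PSC replicates. The difference fell on both flanks alike: peaks of PSC replicate 1 began a median of 32 bp inside the start of the PH peak and ended 34 bp inside its end. Those of PSC replicate 2 began 266 bp inside it.

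The midpoints of PSC and PH peaks lay close together. The signed offset, PSC minus PH, had a median of −1 bp in replicate 1 and 0.5 bp in replicate 2, and the PSC midpoint lay to the left of the PH midpoint at 2224 pairs and to the right at 2168 pairs in replicate 1. The absolute offset had a median of 47.5 bp for PSC replicate 1 and PH, 81.5 bp for PSC replicate 2 and PH, and 70.5 bp for the PSC replicates. An offset of 100 bp or less was seen at 74.9% of the pairs of PSC replicate 1 and PH, at 56.0% of PSC replicate 2 and PH, and at 58.6% of the PSC replicates. Peaks of one protein were thus not displaced to one side of those of the other, and the absolute offsets of PSC replicate 1 and PH were smaller than those of the PSC replicates. Midpoints stand in for summits, which the lists do not give, and the 350 pairs of PSC replicate 1 and PH with an offset above 500 bp were long, with a median of 4184 bp for the longer peak of the pair.

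**Figure D3:**
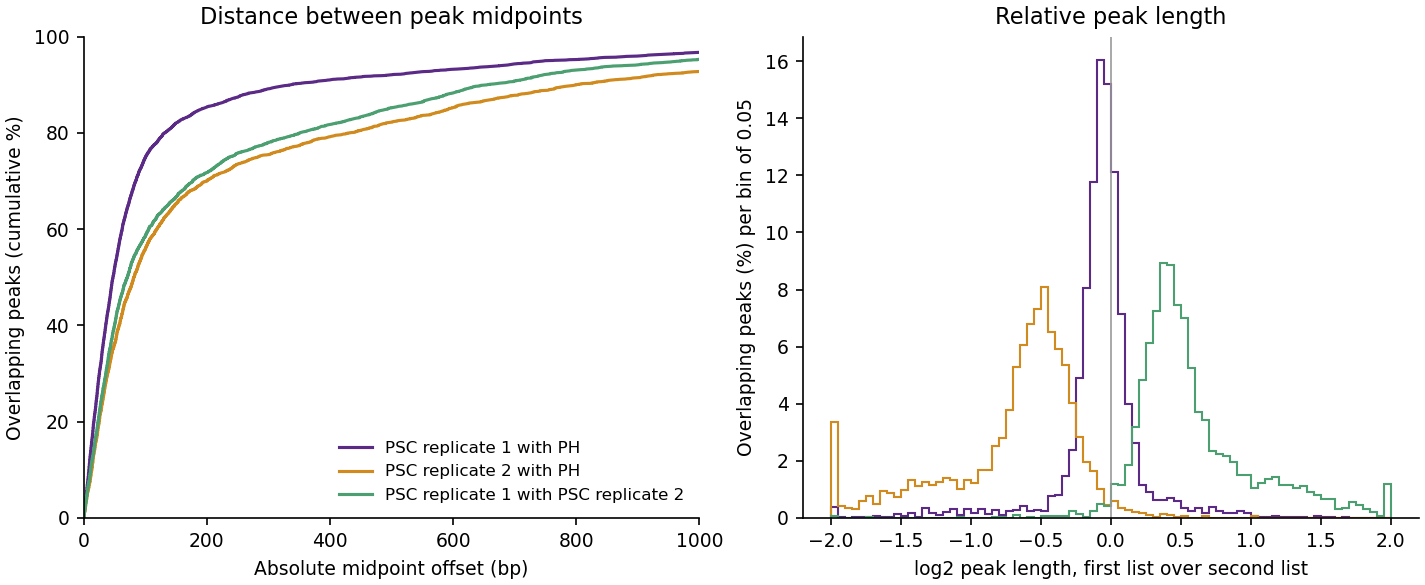
Left, the cumulative share of overlapping peaks (%) by absolute distance between midpoints (bp, shown to 1000). Right, the distribution of log2 peak length of the list named first over that named second, in bins of 0.05 with values beyond −2 and 2 in the end bins: the pairs of PSC replicate 1 and PH centre on −0.055, those of PSC replicate 2 and PH on −0.57, and those of PSC replicate 1 and PSC replicate 2 on 0.48.

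A few peaks were very wide. Peaks of 10 kb or more numbered 24 in PSC replicate 1, 6 in PSC replicate 2 and 31 in PH. All 31 wide PH peaks met a PSC replicate 1 peak, and 20 of them met a PSC peak that was also at least 10 kb. The widest, at chr3L:3392431-3462553, spanned 70123 bp in PSC replicate 1 with the score of 3100. It was met by a 58325-bp peak in PSC replicate 2 with a score of 74.81, and by 2 peaks in PH, the longer of 69917 bp and the higher with a score of 522.36. The percentile was 97.8 in PSC replicate 1 and 28.3 in PSC replicate 2, against 11.9 for the PH peak of 69917 bp and 35.6 for the other PH peak, so peaks of like extent had unlike ranks. The next widest, of 58598 bp at chr3L:603480-662077, was covered to 99.1% by PH peaks and held no peak of PSC replicate 2.

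Sharing was high on every chromosome arm. PSC replicate 1 peaks had a PH partner at 89.9% on 2L, 92.8% on 2R, 91.7% on 3L, 91.3% on 3R and 88.5% on X (616 of 696, interval 85.9 to 90.8). On chromosome 4, the small and largely heterochromatic autosome, all 51 PSC replicate 1 peaks overlapped a PH peak, with an interval of 93.0 to 100%. For PSC replicate 2 the shares ran between 93.8% on X and 97.5% on chromosome 4. Peaks on chromosome 4 were strong in PSC replicate 1 and PH, with median percentiles of 79.7 in PSC replicate 1 and 48.1 in PSC replicate 2, against 81.7 in PH.

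The X chromosome separated the PSC replicates from each other and not PSC from PH. It held 14.4% of the peaks of PSC replicate 1 and 6.44% of those of PSC replicate 2, against 14.2% of the PH peaks. Of the PSC replicate 1 peaks on X, 27.9% had a partner in PSC replicate 2 (interval 24.6 to 31.4), against 67.4% to 71.1% on the autosomal arms. In the same way, 28.7% of the PH peaks on X had a partner in PSC replicate 2, and 91.9% had one in PSC replicate 1. Of the 1381 sites held by PSC replicate 1 and PH and missed by PSC replicate 2, 417 (30.2%) were on X, against 185 of the 2928 sites of all 3 lists (6.32%). Peaks on X had median percentiles of 34.5 and 36.8 in PSC replicates 1 and 2, against 36.6 in PH. A lower rank on X was thus common to the 3 lists, and peaks on X were few in PSC replicate 2. Its lower scores and shorter list move with this difference, and their part in it was not tested.

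**Figure D4:**
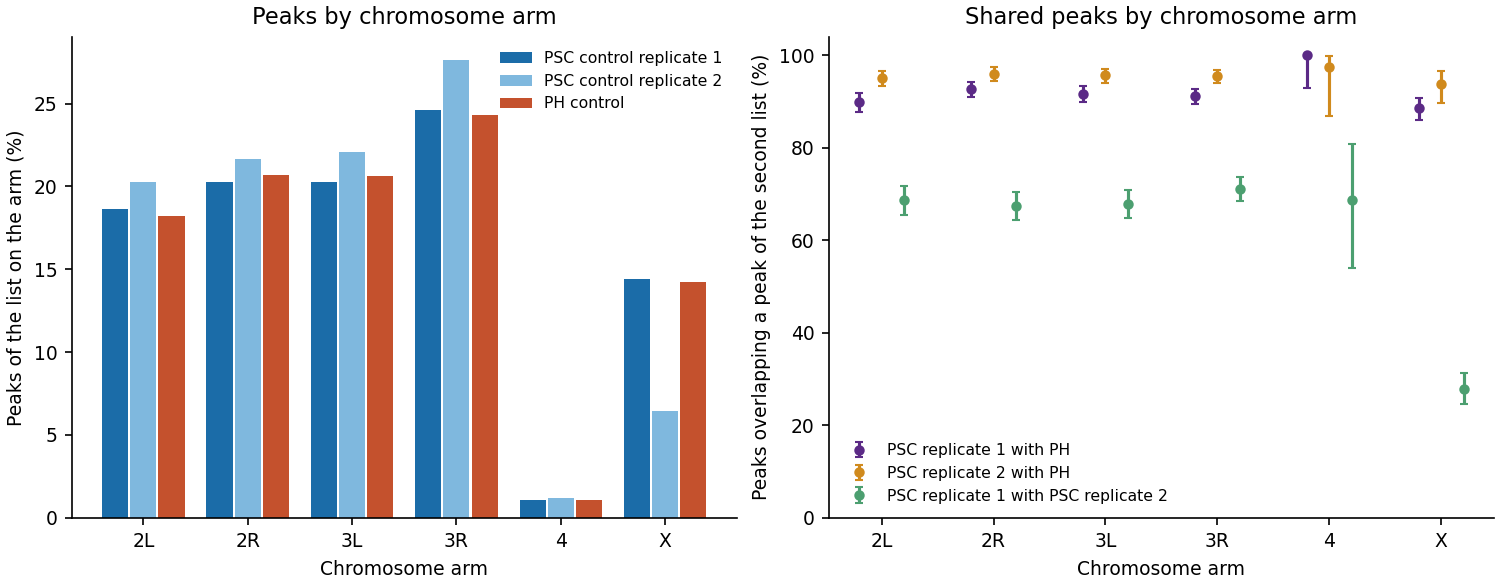
Left, the share of each list's peaks (%) on each chromosome arm, with PSC replicates 1 and 2 in blue and PH in red; on X the bars stand at 14.4% and 6.44% for PSC replicates 1 and 2 and at 14.2% for PH. Right, the share of peaks of the list named first that overlap the list named second (%), with exact 95% binomial intervals; on X, PSC replicate 1 with PSC replicate 2 drops to 27.9%, while the share with PH stays at 88.5% for PSC replicate 1 and 93.8% for PSC replicate 2.

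Along the arms, the number of peaks in windows of 1 Mb was nearly equal in PSC replicate 1 and PH. Pearson's r over 123 windows was 0.98 for PSC replicate 1 and PH, and the numbers in a window differed by at most 9. It was 0.85 for PSC replicate 2 and PH and 0.86 for the PSC replicates, with differences of up to 33 and 34 peaks. Over the 100 autosomal windows r was 0.98, 0.92 and 0.94 for these 3 pairs, and over the 23 windows of X it was 0.97, 0.69 and 0.67. The windows are parts of the same libraries, so these values describe these lists.

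Most peaks of PSC replicate 1 and PH had a near neighbour, whether shared between these lists or not. The share expected from peak density alone was not computed, and the share depends on the number of peaks in a list. Another peak of the same list lay within 10 kb, edge to edge, of 76.8% of the PSC replicate 1 peaks shared with PH (interval 75.5 to 78.0), against 73.1% of those not shared (interval 68.6 to 77.2). In PSC replicate 2 the shares were 64.0% of the shared peaks and 48.6% of those not shared (interval 40.4 to 57.0). In PH, 75.5% of the peaks shared with PSC replicate 1 and 71.7% of those not shared had such a neighbour. In each list the share was higher for shared peaks, and the gap was widest in PSC replicate 2, with 148 unshared peaks. Neighbouring peaks count each other, so peaks are not independent here and the intervals are no test of this gap. The unshared peaks of PSC replicate 2 also ranked low, with a median percentile of 17.3, and the part of score in the gap was not tested.

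Linked at gaps of 10 kb, peaks formed 1103 clusters of 2 or more in PSC replicate 1 and 749 in PSC replicate 2, against 1066 in PH. Clusters of 5 or more held 28.5% and 12.1% of the peaks of PSC replicates 1 and 2, against 26.6% of the PH peaks. These values also depend on the length of the list, which was shortest in PSC replicate 2. Over the merged sites there were 1133 clusters of 2 or more. PSC replicate 1 and PH had the same number of peaks in 699 of them (61.7%), and differed by at most 1 peak in 1056. No cluster differed by more than 3. PSC replicates 1 and 2 had the same number in 330. A cluster with no PSC peak occurred 3 times for replicate 1 and 146 times for replicate 2, and one with no PH peak 8 times. Sites held by PSC replicate 1 and PH made up 82.3% of the 1159 sites that stood alone and 85.1% to 86.2% of those in clusters of 5 to 9 and of 10 or more.

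The 3 clusters with the most sites in all 3 lists lay on 2R, 2L and 3L. The cluster at chr2R:12010972-12128988 spanned 118 kb with 17 peaks in PSC replicate 1 and 11 in PSC replicate 2, against 17 in PH. The cluster at chr2L:10355861-10440067 had 14 and 10 peaks in the PSC replicates, against 15 in PH. The cluster at chr3L:17549853-17615577 had 11 and 10 peaks in the PSC replicates, against 12 in PH. All 3 clusters had fewer peaks in PSC replicate 2 than in the other lists. The same held for the whole lists, with 3276 peaks in PSC replicate 2 against 4830 in PSC replicate 1 and 4629 in PH. No annotation of the dm3 build was used here, so these places carry no gene names.

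Among the sites of all 3 lists, the 5 with the highest summed percentiles included 1 on X, 3 on 2L and 1 on 2R. The highest was chr2R:8929113-8931744, at the edge of the Psc/Su(z)2 window described below, with scores of 3100 and 768.3 in PSC replicates 1 and 2 and 3151.34 in PH. PSC and PH midpoints were 23 bp apart there in replicate 1. On 2L, neighbouring sites lay at chr2L:12545301-12547924 and chr2L:12519525-12522545, and a longer one at chr2L:16283458-16289220 had peaks of 5543 bp and 5123 bp in PSC replicates 1 and 2, against 5741 bp in PH. The fifth, chrX:12605761-12648670, held the highest score of PSC replicate 2, 1860.04, in a peak of 39537 bp. PSC replicate 1 had 2 peaks there, the longer of 36553 bp, and PH had 1 peak of 42908 bp. With scores of 3100 and above taken as equal, an alternative added after the data had been seen, 2 of these 5 sites, the fifth and the longer one on 2L, were among the 5 highest.

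Sites where PSC and PH differed most were taken from those with 1 peak in each list where both PSC replicates differed from PH the same way. They were chosen for that difference, so their values are a description. PSC ranked higher at chr3R:18279564-18282481, with percentiles of 76.2 and 71.2 in PSC replicates 1 and 2, against 17.7 in PH. It did so at chr2R:8919105-8921214 as well, with 58.4 and 74.1 in the PSC replicates against 16.8 in PH, and at chr2L:544023-546252, with 55.9 and 54.2 against 5.75. PSC ranked lower at chr2R:3905663-3907411, with percentiles of 7.45 and 23.3 in PSC replicates 1 and 2, against 73.7 in PH. At chr2R:3305432-3307475 the percentiles were 47.9 and 9.55 in the PSC replicates against 82.1 in PH, and at chrX:8544225-8546088 they were 37.7 and 16.1 against 77.7.

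Few strong peaks lacked a partner. In the highest decile of PSC replicate 1, 482 of 483 peaks overlapped PH, and the exception, chr2L:5023024-5030964, had a score of 2283.5 (percentile 92.3) and no peak in PSC replicate 2. It was named after its values had been seen. The highest PSC peaks found in both replicates and not in PH lay at chr3L:13348085-13350871, with scores of 768.38 and 80.79 in PSC replicates 1 and 2 (percentiles 56.5 and 33.2), and at chr3L:19261212-19262891, with scores of 680.15 and 99.3 (percentiles 51.2 and 46.4). The highest PH peaks without PSC in either replicate were chr2R:8844369-8848386, with a score of 1309.33 (percentile 71.5), and chr2L:3834687-3837280, with a score of 801.62 (percentile 52.6). The first of these PH peaks lies in the Psc/Su(z)2 window, and a site held by all 3 lists ended just before it, at position 8844350.

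Known PcG targets were read from 4 windows of the genome whose genes the study's browser tracks name: the bithorax complex BX-C (Ubx, abd-A and Abd-B) and the Antennapedia complex ANT-C (Dfd, Scr and Antp), which are the Hox gene clusters, the Psc/Su(z)2 locus, which encodes PSC itself and its paralog, and engrailed (en), which encodes a homeodomain protein of segment patterning. In BX-C, PSC replicates 1 and 2 had 19 and 18 peaks, against 22 in PH. In ANT-C they had 28 and 26, against 27 in PH. At Psc/Su(z)2 each of the 3 lists had 18 peaks, and at en each had 1. These windows thus held peaks of both proteins in similar numbers, and PSC replicate 2 was not short of peaks here as it was over the whole genome. The paper's tracks also show regions around the loci, so the windows may take in sequence beside the named genes.

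In BX-C, 17 of 22 sites were held by all 3 lists. PSC replicate 1 ranked below PH at 13 of the 19 sites it shared with PH, with a median difference of −8.20 percentile points and a range of −39.3 to 34.8. PSC replicate 2 ranked above PH at 13 of its 18 shared sites, with a median difference of 11.7 points. The PSC replicates thus pointed in opposite directions, and PH lay between them at 10 of the 17 sites of all 3 lists, above both at 3 and below both at 4. Over the 2722 sites with 1 peak in each list, the same percentiles put PH between them at 1185, above both at 841 and below both at 696. PH peaks with no PSC peak in either replicate lay at chr3R:12672455-12673912 (percentile 44.1) and chr3R:12759442-12761053 (percentile 11.0).

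Among the PREs drawn on the BX-C track, the peak nearest to bx had scores of 1083.3 and 395.5 in PSC replicates 1 and 2, against 1748.98 in PH, and percentiles of 70.2 and 96.6 against 81.9. At bxd, a PRE of Ubx, the scores were 1662.11 and 354.82 in the PSC replicates against 3100 in PH, with percentiles of 84.9 and 95.6 against 97.3. At MCP the scores were 1482.79 and 633.71 in the PSC replicates against 2308.54 in PH, with percentiles of 81.3 and 99.5 against 89.3. The lowest percentile of these 3 elements was 70.2, at bx in PSC replicate 1. At Fab7, a boundary and PRE of Abd-B, PSC replicate 1 had a score of 292.86 (percentile 18.6) and PSC replicate 2 had no peak, against 768.31 (percentile 50.8) in PH. The paper's qPCR found PSC at all 4 of these PREs, Fab7 included, in sorted control cells. Midpoints of PSC replicate 1 and PH lay between 45 and 81.5 bp apart at the 4 elements. The elements were matched by eye to the nearest peak of a drawn track, after the lists had been seen.

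In ANT-C, 22 of 30 sites were held by all 3 lists, and PSC replicate 1 ranked below PH at 16 of 25 shared sites, with a median difference of −3.17 points. PSC replicate 2 ranked above PH at 12 of its 24 shared sites. The largest gap was at chr3R:2755570-2757187, with percentiles of 7.64 and 34.8 in PSC replicates 1 and 2, against 67.7 in PH. The highest site, chr3R:2737314-2739637, had percentiles of 93.1 and 99.2 in the PSC replicates against 99.8 in PH. At 3 sites of ANT-C a PSC peak had no PH peak, and no PH peak lacked PSC. PH ranked above both PSC replicates at 9 of the 22 sites of all 3 lists, below both at 5, and between them at 8. Over the 2722 sites with 1 peak in each list these counts were 841, 696 and 1185.

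At Psc/Su(z)2, 15 of 20 sites were held by all 3 lists. PSC replicate 1 ranked above PH at 11 of the 15 shared sites, with a median difference of 3.41 points, and PSC replicate 2 ranked above PH at 9 of them, with a median difference of 11.0 points. PH ranked below both PSC replicates at 7 sites, above both at 2 and between them at 6. Over the 2722 sites with 1 peak in each list these counts were 696, 841 and 1185. At 3 sites PSC replicate 1 had a peak and PH had none, and at 2 sites PH alone had a peak. These are counts over few sites in one locus, with no test.

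The single en site, chr2R:7414846-7418006, had scores of 2606.18 and 469.25 in PSC replicates 1 and 2, against 3100 in PH, and its PSC and PH midpoints in replicate 1 were 12 bp apart. Its percentiles were 94.6 and 98.0 in the PSC replicates, against 97.3 in PH, so all 3 lists placed it among their highest peaks.

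**Figure D5:**
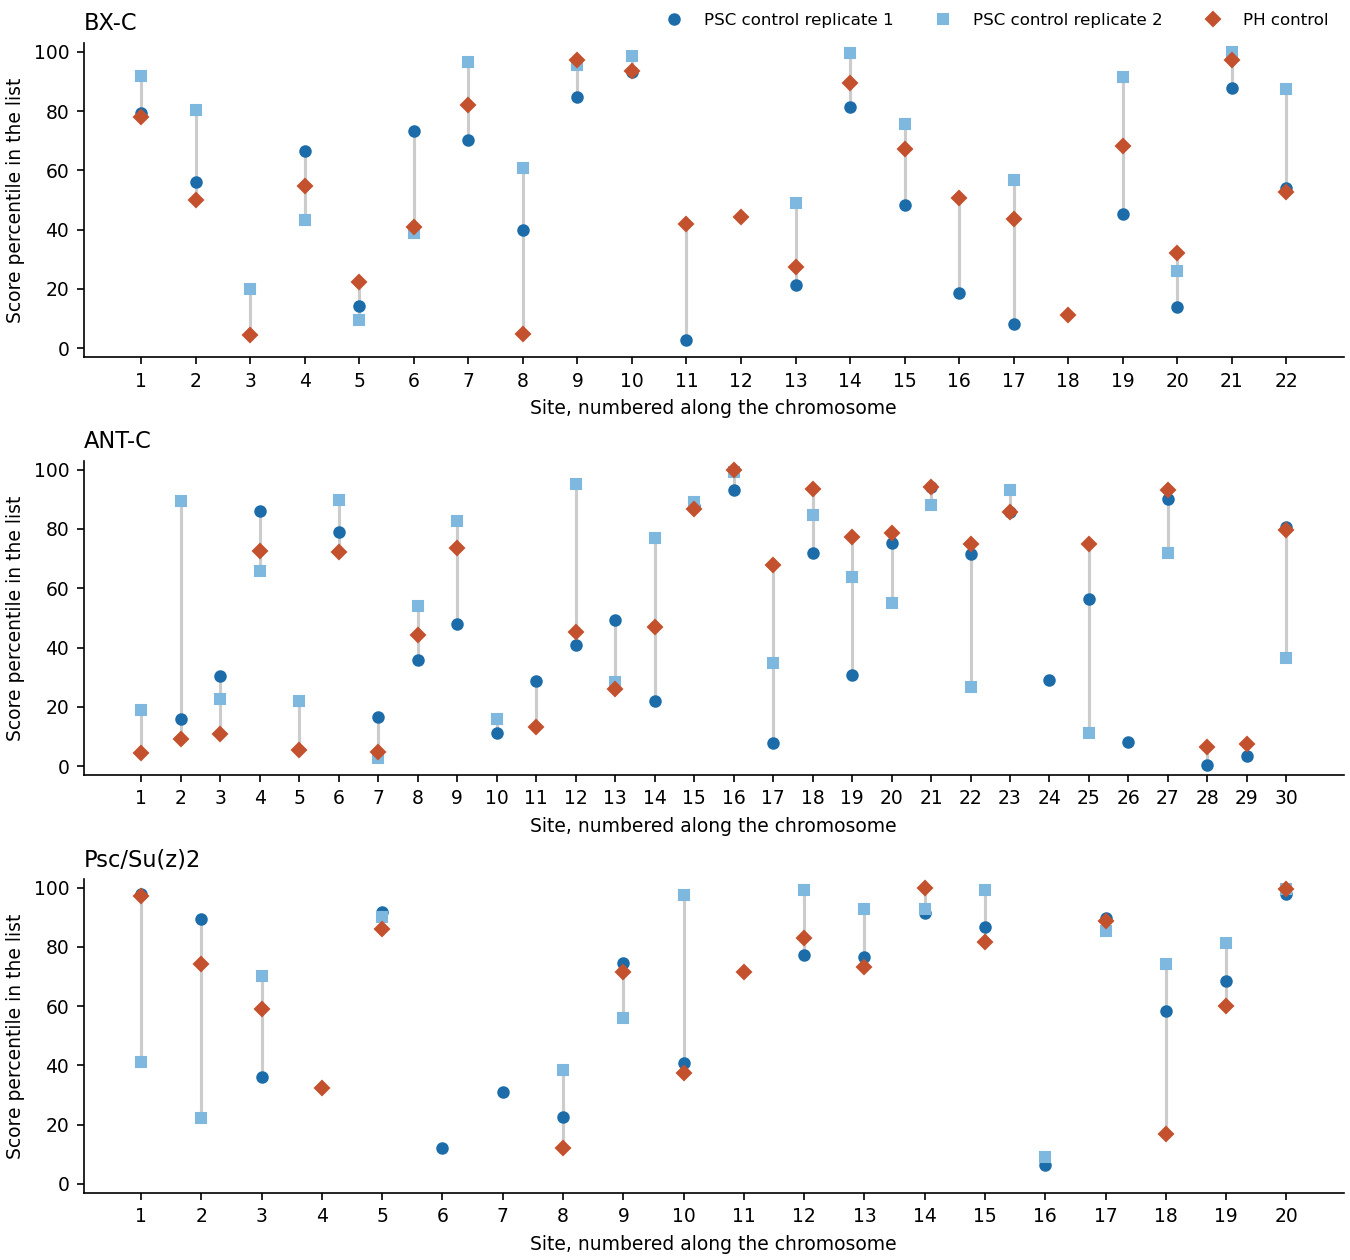
Score percentile within its own list (vertical axis, 0 to 100) for each site of BX-C, ANT-C and Psc/Su(z)2, numbered along the chromosome; circles and squares are PSC replicates 1 and 2, diamonds are PH, and a grey line joins the values of one site. In BX-C the PH value lies between the PSC replicates at 10 of the 17 sites of all 3 lists, and at Psc/Su(z)2 it lies below both at 7 of 15. Of the 2722 sites with 1 peak in each list over the genome, it lies between them at 1185 and below both at 696.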

How the data were processed

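Peak lists of 3 samples of control cells were used. Per the paper's methods and the labels, the authors mapped reads of 36 bp on the dm3 build by Bowtie 1.1.2 in Galaxy, retained unique hits and called binding sites in each sample with MACS (listed as 1.0.1 in the submitters' processing notes) at fragment size 36, bandwidth 200, genome size 120000000 and a p-value cutoff of 1e-05. Peaks with a false discovery rate above 5%, and those on U and Uextra, had been taken out. Some samples of the study were fragmented again before library generation, and which ones is not given in the sources used here. The deposited lists give chromosome, start, end, peak number and score, the score being the authors' own value. Reads, heights and inputs were not used, so the depth of each list is unknown.

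Overlaps (1 bp or more), midpoints, lengths, percentiles within a list and clusters (10 kb) were computed with Python 3.11.15, pandas 2.3.3, numpy 2.4.6 and scipy 1.17.1, tested on simulated lists, and checked with bedtools 2.31.1 (the same count in 6 of 6 directions). A peak that met several was paired with the one of largest overlap. Coordinates are 1-based dm3. With 1 PH list no test was run, and peaks are not replicates. The sites named were the 5 highest in all 3 lists, the 3 and 3 that differed most, the 2 and 2 strongest without a partner, the 3 largest clusters and the 4 windows. Members, windows and rules were chosen with earlier results of these data known. The windows were read from drawn tracks to 10 kb. No dm3 genome or annotation was used here, so sequences, motifs and genes near peaks were left out. Alternatives were other overlap rules, list lengths, score thresholds, chromosomes and linking distances.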

Additional observations from a re-analysis of the deposited data

How the results depend on the processing

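Using PSC replicate 2 in place of replicate 1 changed all 9 summary values. Their ranges over the PSC replicates were 91.2% to 95.5% of PSC peaks with PH, 64.5% to 94.1% of PH peaks with PSC, 42.2% to 79.4% of covered bases in common, 0.51 to 0.87 for the rank correlation of scores, 54.3% to 77.4% of the strongest peaks, −0.57 to −0.055 for log2 length of PSC over PH, 47.5 to 81.5 bp for the absolute offset, 3.66 to 11.5 points for the range over arms and 64.0% to 76.8% of shared peaks with a neighbour. The cause was not tested. The SD of the PSC replicates comes from the gap between these 2 lists, so a change of replicate exceeds 1 SD by construction. This SD is wide, at 26.3 points for covered bases in common. A fall in common bases from 79.4% to 69.8%, in the upper 50% of each list, thus lay within 1 SD. Of 57 other alternatives, 51 moved the value by no more than 1 SD of the PSC replicates, which is a loose limit. Of the other 6, the share of PSC replicate 1 peaks with PH was 86.4% in the upper 50% of each list, and the share with a neighbour was 62.0% for the 3000 highest peaks, 54.0% in the upper 50%, and 58.6%, 89.1% and 97.3% at 5, 20 and 50 kb, as fewer peaks or another distance leave fewer or more neighbours. Taking scores of 3100 and above as equal was added after the data had been seen. No paired analysis was possible because PH had 1 sample and no value came from a test. The depth of each list is unknown, so weak sites missing from a list cannot be told from unbound ones.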
